A study of Mus musculus with 18 samples.

Results

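The interleukin-1 (IL-1) and interleukin-18 (IL-18) genes described here are 8 of the 20615 genes in an RNA-seq table of bone marrow-derived macrophages (BMDMs), chosen by gene symbol. They are the ligand genes Il1a, Il1b and Il18, the antagonist genes Il1rn and Il18bp, and the receptor genes Il1r1, Il1r2 and Il1rap. All 8 were in the table, and all 8 were among the 15789 genes that passed the filter on low counts, Il1r2 only through the AC treated SjSS samples. RNA was measured in 18 samples, 3 in each of 6 groups. The groups were control, apoptotic cell (AC) treated and CpG treated BMDMs from C57BL/6 (B6) mice and from C57BL/6.NOD-Aec1Aec2 (SjSS) mice, a model of Sjögren's syndrome that carries NOD chromosome intervals on a B6 background. Donor mice were female and 7 to 12 weeks old, and marrow was cultured for 7 days with L929 cell medium as the source of M-CSF. ACs were thymocytes killed with dexamethasone, added at 5 per BMDM for 2 h and washed off. The labels give 3 h of further culture after the wash, whereas the methods of the study give a longer time. The strain of the thymocytes given to each sample was not stated in the sources used here. CpG, an oligonucleotide ligand of the endosomal receptor TLR9, was given at 1 µM for 6 h. Control BMDMs had neither agent. AC and CpG treated samples thus differ in timing as well as in agent, and no test was made between AC and CpG samples of 1 strain. The limits of the NOD intervals were not given in the sources used here, and whether any of the 8 genes lies within one was not tested.

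IL-1α and IL-1β are cytokines that signal through the same receptor, which pairs the ligand-binding chain IL-1R1 with the accessory chain IL-1RAP and recruits MyD88. The IL-1 receptor antagonist, encoded by Il1rn, occupies IL-1R1 without signaling, and IL-1R2 is a decoy that binds ligand and lacks a signaling domain. IL-18 signals through a related receptor and is neutralized by IL-18 binding protein. IL-1β and IL-18 are made as precursors that caspase-1 cleaves after an inflammasome assembles, so an RNA level gives the supply of precursor and not the secreted cytokine. In macrophages Il1b is a classic early target of Toll-like receptors.

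Total counts were 30688336 to 57139662 per sample, with a median of 47912526. Macrophage markers were high everywhere, with a summed level of 15590 to 23910 CPM (counts scaled to library totals adjusted by TMM) over 9 genes that included Lyz2, Csf1r, Adgre1 and Cd68. Lyz2 was the largest part of the sum, with a mean of 11330 CPM in B6 controls, where the sum had a mean of 18540. Of 16 thymocyte and T cell genes, 4 passed the filter. Their summed level over all 16 was 14.2 to 18.9 CPM in AC treated SjSS BMDMs and 10.7 to 12.1 in SjSS controls. In AC treated B6 BMDMs it was 5.30 to 6.26 CPM, and in B6 controls 8.63 to 10.4. Cd4, which macrophages can also express, made up most of that sum. Without Cd4 the sum over the other 15 genes was higher with AC in both strains. It was 1.95 to 2.72 CPM with AC and 0.853 to 0.897 in controls of B6, and 1.80 to 2.61 with AC and 0.946 to 1.46 in controls of SjSS. Lck and Cd5 made up most of the rise in SjSS, with means of 0.155 and 0.467 CPM in controls and 0.651 and 0.803 with AC. In B6 they were at 0.132 and 0.297 CPM in controls and 0.264 and 0.712 with AC. Rag1, a thymocyte gene, had 24 counts over the AC treated B6 samples, 3 over those of SjSS and 0 in controls. Dntt, Themis and Cd8a had 18, 10 and 26 counts with AC in B6, against 0, 1 and 1 in B6 controls. In SjSS they had 1, 0 and 10 counts with AC and 2, 1 and 12 in controls. Of the T cell receptor genes Cd3d, Cd3e, Cd3g, Trac, Trbc1 and Trbc2, the highest value in any sample was 0.227 CPM (Trbc1, in B6 AC replicate 2). The part of residual thymocyte RNA in the AC results was not tested. In bulk samples such as these, fewer cells of a type and less RNA per cell cannot be told apart. BMDMs came from 3 mice of each strain. The labels do not tie samples to mice, so p values measure the spread between these samples.

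The 2 IL-1 ligand genes lie on the minus strand of chromosome 2 in mm10, Il1a at 129299610 to 129309972 and Il1b at 129364570 to 129371139. Il1rn lies on the plus strand of the same chromosome at 24336853 to 24351494. The promoter windows of these 3 genes are printed because their products meet at the same receptor and their responses, given next, are compared throughout. Each window holds 250 bases before and 50 bases from the transcription start on the gene's own strand, taken from RefSeq (GRCm38.p6), and capitals mark a TATA box (TATAAAA) or an AP-1 motif (TGANTCA).

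Il1a, chr2:129309923-129310222, minus strand: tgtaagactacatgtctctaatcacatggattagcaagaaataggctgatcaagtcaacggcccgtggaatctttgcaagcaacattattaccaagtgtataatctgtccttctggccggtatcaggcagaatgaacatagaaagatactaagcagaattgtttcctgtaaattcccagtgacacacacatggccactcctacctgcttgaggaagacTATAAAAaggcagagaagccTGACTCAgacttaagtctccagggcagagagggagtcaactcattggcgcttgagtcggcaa

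Il1b, chr2:129371090-129371389, minus strand: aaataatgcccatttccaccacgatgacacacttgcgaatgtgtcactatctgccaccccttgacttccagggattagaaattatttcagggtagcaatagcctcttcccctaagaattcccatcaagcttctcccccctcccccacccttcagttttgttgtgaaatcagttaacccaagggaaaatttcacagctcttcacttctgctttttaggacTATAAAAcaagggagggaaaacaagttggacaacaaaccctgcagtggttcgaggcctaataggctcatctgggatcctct

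Il1rn upstream start, chr2:24336610-24336909, plus strand: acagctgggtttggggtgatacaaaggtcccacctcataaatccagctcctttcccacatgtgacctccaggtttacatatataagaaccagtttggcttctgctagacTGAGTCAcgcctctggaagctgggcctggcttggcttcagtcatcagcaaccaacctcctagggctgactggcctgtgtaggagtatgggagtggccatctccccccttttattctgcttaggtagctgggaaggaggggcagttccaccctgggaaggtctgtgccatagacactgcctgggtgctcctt

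TATAAAA was found 32 bases before the Il1a start and 31 bases before the Il1b start, and 5.48% of the 32851 RefSeq windows hold it on either strand. An AP-1 motif was found 12 bases before the Il1a start and 141 bases before the upstream Il1rn start, with 7.81% of windows holding one. The NF-κB motif searched (GGGA and TTCC with any 2 bases between them, both strands, 1.47% of windows) was in no window of the 8 genes. Among the receptor genes, a GAS motif (TTCNNNGAA, 8.30% of windows) was 111 bases before the Il1r2 start. An ISRE (GAAA, any 2 bases, then GAAA, 3.44% of windows) began 21 bases after the Il1rap start. RefSeq gives Il1rn an upstream and a downstream start region, and counts per gene do not separate their transcripts. A match, or the lack of one, describes only the letters of these windows.

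Il1b, the gene of the main secreted IL-1, had the widest range of the family. It rose with both agents in both strains, further in SjSS with AC and further in B6 with CpG. In B6 controls Il1b was at 4.29, 4.36 and 7.14 CPM, and in SjSS controls at 1.33, 2.31 and 2.28 CPM. With AC the B6 samples held 40.0, 60.5 and 54.0 CPM and the SjSS samples 122.2, 131.3 and 131.8 CPM. Every AC treated sample was above every control of its strain, and every SjSS sample with AC was above every B6 sample with AC. With CpG the B6 samples held 1263, 1035 and 784.9 CPM and the SjSS samples 108.7, 96.1 and 123.0 CPM. The order of the strains was thus the opposite with CpG, again with no overlap.

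A gene was called when its adjusted p was below 0.05 and its log2 fold change exceeded 1.3 in either direction. By edgeR's quasi-likelihood test, with p values adjusted over all tested genes, Il1b rose with AC by a log2 fold change of 3.29 (SE 0.21, adjusted p = 7.31e-10) in B6. In SjSS the same response was 6.05 (SE 0.25, adjusted p = 1.41e-13). CpG raised it by 7.61 (SE 0.24, adjusted p = 7.39e-15) in B6, a 194.9-fold change, and by 5.82 (SE 0.25, adjusted p = 5.01e-13) in SjSS. Both interactions of strain with agent were called for Il1b, with opposite signs. The AC response was larger in SjSS by 2.76 on the log2 scale (SE 0.33, adjusted p = 1.83e-06) and the CpG response smaller, at -1.79 (SE 0.34, adjusted p = 0.00359). Between strains, the log2 difference of SjSS from B6 was -1.44 in controls (SE 0.27, adjusted p = 0.00104), 1.32 with AC (SE 0.18, adjusted p = 7.56e-06) and -3.23 with CpG (SE 0.19, adjusted p = 9.81e-10). The differences in controls and with AC lay near the fold threshold. The one in controls was -1.16 without B6 control replicate 3 and -1.20 without SjSS control replicate 1, and the one with AC was 1.17 without B6 AC replicate 1 and 1.02 with libraries scaled by their totals alone, none of them called.

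Il1a encodes IL-1α, which is active as a precursor and can act as an alarm signal from dying cells. Its strain differences ran in the same directions as those of Il1b. Control samples held 4.58, 7.51 and 7.34 CPM in B6 and 3.32, 3.99 and 2.65 CPM in SjSS. AC treated samples held 19.9, 29.0 and 28.4 CPM in B6 and 103.9, 115.3 and 103.6 CPM in SjSS. The SjSS samples with AC were all above 100 CPM and the B6 samples all below 30 CPM. CpG treated samples held 172.8, 145.8 and 127.4 CPM in B6 and 31.5, 24.6 and 31.2 CPM in SjSS. With CpG the order was the opposite, with every B6 sample above every SjSS sample. Il1a rose with AC by a log2 fold change of 2.00 (SE 0.18, adjusted p = 5.71e-08) in B6 and 5.05 (SE 0.20, adjusted p = 9.40e-14) in SjSS. With CpG it rose by 4.53 (SE 0.19, adjusted p = 2.20e-13) in B6 and 3.16 (SE 0.20, adjusted p = 1.14e-10) in SjSS. The AC response was larger in SjSS by 3.05 (SE 0.27, adjusted p = 3.53e-08). The CpG response was smaller in SjSS, at -1.37 (SE 0.27, adjusted p = 0.00463). That last call was lost when single samples were left out, at -1.16 without B6 control replicate 1, -1.24 without SjSS control replicate 2, -1.25 without B6 CpG replicate 1 and -1.26 without SjSS CpG replicate 2. Compared directly, SjSS was above B6 by 2.06 with AC (SE 0.16, adjusted p = 4.57e-09) and below it by -2.35 with CpG (SE 0.17, adjusted p = 1.09e-08). In controls the difference was -0.98 (SE 0.21, adjusted p = 0.00307), which did not reach the fold threshold.

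**Figure D1:**
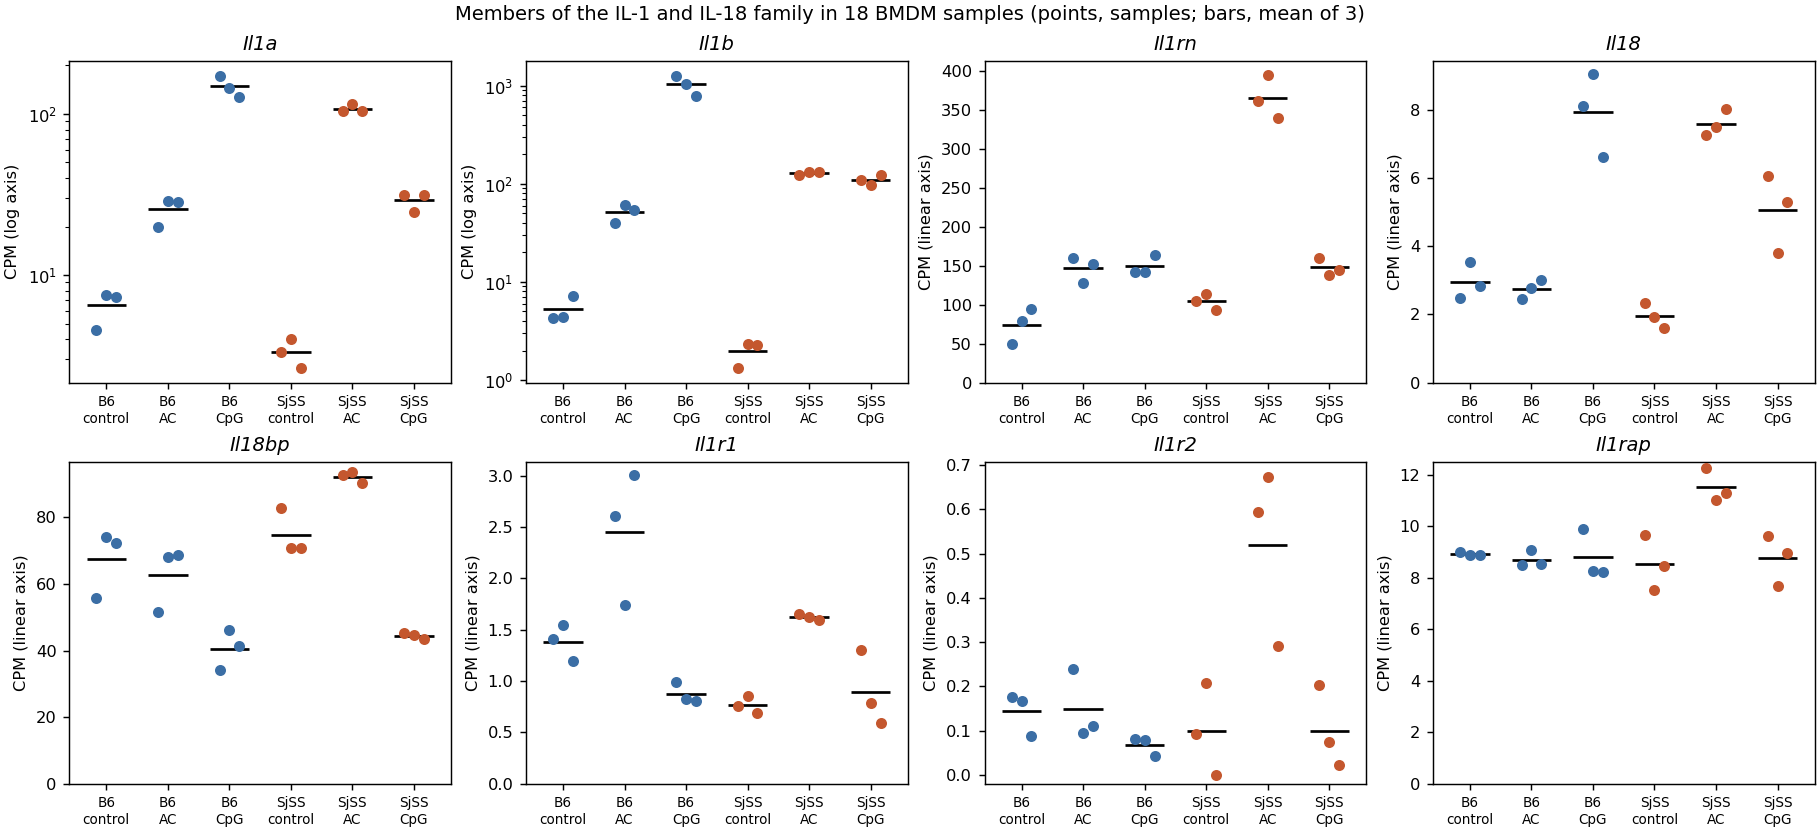
CPM of the 8 genes in each of the 18 samples (points, B6 in blue and SjSS in orange; bars, mean of 3), with a log axis for Il1a and Il1b and linear axes for the others. Il1a and Il1b had means of 148.7 and 1028 CPM with CpG in B6, and Il1rn had a mean of 364.9 CPM with AC in SjSS.

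Il1rn, the receptor antagonist gene, was expressed in all groups, and 1 group stood above all others. Control samples held 49.8, 79.6 and 94.2 CPM in B6 and 104.7, 113.9 and 93.5 CPM in SjSS, with overlap between strains. AC treated samples held 159.5, 128.3 and 151.7 CPM in B6 and 360.4, 394.9 and 339.4 CPM in SjSS. Each of the 3 SjSS samples with AC exceeded every other sample of the series. CpG treated samples held 142.2, 142.2 and 164.0 CPM in B6 and 160.1, 138.4 and 144.5 CPM in SjSS, so the strains overlapped with CpG. Il1rn rose with AC in SjSS, by a log2 fold change of 1.81 (SE 0.16, adjusted p = 7.12e-09). In B6 it was 0.98 higher with AC (SE 0.15, adjusted p = 5.04e-05) and 1.01 higher with CpG (SE 0.15, adjusted p = 1.42e-05), under the fold threshold in both cases. In SjSS the difference with CpG was 0.51 (SE 0.15, adjusted p = 0.00859). The interaction of strain with AC was 0.84 (SE 0.22, adjusted p = 0.00473), also under the fold threshold. Between strains Il1rn was called with AC, at 1.32 (SE 0.15, adjusted p = 8.80e-07), and was at -0.02 with CpG (SE 0.15, adjusted p = 0.955). The AC difference was 1.23 without B6 AC replicate 2, 1.26 without SjSS AC replicate 2 and 1.02 with libraries scaled by totals alone, and was then not called.

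Because IL-1β and its antagonist compete for the same receptor chain, the ratio of their RNAs was taken within each sample, where library scaling cancels. The ratio is of CPM, not corrected for the length of the genes, so it serves to compare samples and not the 2 genes. In controls its mean on the log2 scale was -3.81 ± 0.337 (SD, n = 3) in B6 and -5.73 ± 0.478 in SjSS. With AC the ratio was -1.52 ± 0.457 in B6 and -1.50 ± 0.122 in SjSS, while both genes were higher in SjSS. With CpG the ratio was 2.76 ± 0.456 in B6 and -0.44 ± 0.179 in SjSS. In controls and with CpG every B6 sample was above every SjSS sample. For Il1a to Il1rn the mean log2 ratios in control, AC and CpG samples were -3.50, -2.52 and -0.02 in B6. In SjSS they were -4.97, -1.76 and -2.35. For Il18 to Il18bp they were -4.50, -4.49 and -2.35 in B6 and -5.24, -3.60 and -3.15 in SjSS. An exact two-sided permutation test of 3 samples against 3 cannot give a p below 0.1, and 19 of the 21 comparisons of these ratios reached that limit (0.111 after adjustment over the 21). The exceptions were Il1b to Il1rn between strains with AC, with a log2 difference of 0.02 (exact permutation p = 1.0), and Il18 to Il18bp with AC in B6, with a log2 difference of 0.01 (exact permutation p = 0.9). These are ratios of RNA and not of protein.

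**Figure D2:**
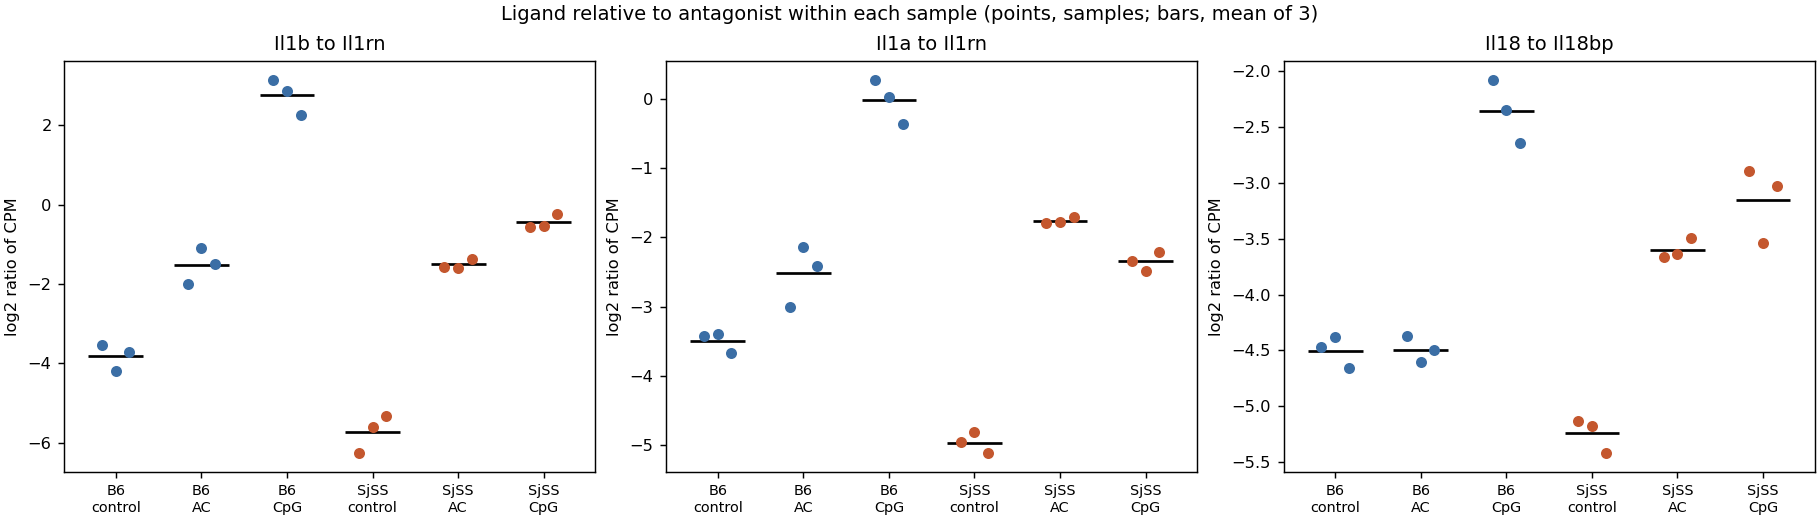
The log2 ratio of ligand CPM to antagonist CPM within each sample (points, B6 in blue and SjSS in orange; bars, mean of 3), not corrected for gene length. In the panel of Il1b to Il1rn the CpG treated B6 samples lie above those of SjSS (means 2.76 and -0.44), and the AC treated samples of B6 and SjSS lie together (means -1.52 and -1.50).

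Il18 encodes a cytokine that drives interferon-γ production by lymphocytes. It was low in all groups and responded to AC in SjSS BMDMs, whereas in B6 BMDMs the samples with AC overlapped the controls. Control samples held 2.48, 3.53 and 2.82 CPM in B6 and 2.32, 1.92 and 1.61 CPM in SjSS. With AC the B6 samples held 2.44, 2.76 and 3.01 CPM and the SjSS samples 7.26, 7.51 and 8.01 CPM. With CpG the B6 samples held 8.10, 9.05 and 6.61 CPM and the SjSS samples 6.05, 3.81 and 5.30 CPM. With AC the strains did not overlap, and with CpG all B6 samples were above all SjSS samples. Il18 rose with AC in SjSS by a log2 fold change of 1.96 (SE 0.18, adjusted p = 2.39e-08), and the AC value in B6 was -0.10 (SE 0.18, adjusted p = 0.714). The difference between these responses, 2.06, was itself called (SE 0.26, adjusted p = 3.91e-06). SjSS was above B6 with AC by 1.47 (SE 0.18, adjusted p = 1.27e-06), which was 1.17 and not called with libraries scaled by totals alone. With CpG Il18 rose by 1.43 in B6 (SE 0.17, adjusted p = 8.19e-07) and 1.37 in SjSS (SE 0.19, adjusted p = 3.90e-06), and the interaction was -0.06 (SE 0.26, adjusted p = 0.931). The CpG calls were close to the fold threshold. The SjSS value was 1.24 without SjSS control replicate 3 and 1.22 without SjSS CpG replicate 1, and scaling by totals alone gave 1.25 in B6 and 1.24 in SjSS. The deposited row for Il18 (chromosome 9, 50575273 to 50581837, plus strand) starts 20446 bp past the start of the GENCODE M21 gene, so its values leave out the upstream exons.

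Il18bp, whose product binds and neutralizes IL-18, was abundant and moved little. Control samples held 55.8, 74.1 and 72.3 CPM in B6 and 82.8, 71.0 and 70.8 CPM in SjSS. With AC they were at 51.5, 68.2 and 68.8 CPM in B6 and 92.7, 93.6 and 90.5 CPM in SjSS. With CpG they were at 34.3, 46.1 and 41.4 CPM in B6 and 45.2, 44.7 and 43.5 CPM in SjSS, below every control in both strains. The log2 values for CpG were -0.73 in B6 (SE 0.12, adjusted p = 2.68e-05) and -0.75 in SjSS (SE 0.12, adjusted p = 2.33e-05), both under the fold threshold. For AC in SjSS the value was 0.30 (SE 0.12, adjusted p = 0.0334) and turned to -0.11 with libraries scaled by totals alone. Between strains with AC the difference was 0.55 (SE 0.12, adjusted p = 0.000630), also under it. Exons of Il18bp overlap those of Numa1 on the opposite strand by 80 bp, and whether counting used strand was not stated in the sources used here.

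Of the receptor genes Il1r1 and Il1r2 had few counts, and neither Il1r1 nor Il1rap was called in any comparison. Il1r1, the signaling chain, held 1.41, 1.54 and 1.19 CPM in B6 controls and 0.755, 0.858 and 0.689 CPM in SjSS controls. With AC it held 2.60, 1.74 and 3.01 CPM in B6 and 1.65, 1.62 and 1.59 CPM in SjSS. In both strains every AC treated sample was above every control, with log2 values of 0.82 in B6 (SE 0.24, adjusted p = 0.0101) and 1.09 in SjSS (SE 0.26, adjusted p = 0.00145), neither past the fold threshold. With CpG it held 0.988, 0.825 and 0.804 CPM in B6, below the controls, at a log2 value of -0.65 (SE 0.26, adjusted p = 0.0361). In SjSS it held 1.3, 0.791 and 0.594 CPM, which overlapped the controls. SjSS lay below B6 in controls, by a log2 value of -0.86 (SE 0.26, adjusted p = 0.0267), and with AC, by -0.59 (SE 0.24, adjusted p = 0.0480). Fibroblasts express Il1r1, and the summed level of 7 fibroblast and stromal genes was 41.8 to 137.8 CPM in the B6 samples and 153.4 to 238.3 CPM in the SjSS samples. The strain order of that sum was thus the opposite of that of Il1r1 in controls and with AC, and its part in the Il1r1 values was not tested.

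Il1r2, the decoy receptor gene, was close to the limit of detection. Its counts summed over the 3 samples of a group were 24 in B6 controls, 22 with AC and 9 with CpG, and 12 in SjSS controls, 68 with AC and 13 with CpG. Single samples held 0.594, 0.673 and 0.292 CPM with AC in SjSS and at most 0.238 CPM elsewhere, including 0 in 1 SjSS control. Given the library totals as scaled by TMM, the ratio of summed counts between AC treated and control SjSS samples was 6.20. Its exact 95% interval was 3.33 to 12.6 (counting error only). The ratio between AC treated SjSS and B6 samples was 3.50 (2.14 to 5.94). Because Il1r2 passed the filter on low counts only through the AC treated SjSS samples, where all 3 exceeded the cutoff against 2 of the other samples, it had to be high there. Its fitted fold changes are therefore not given as results. The ratios above share this selection, so they and their intervals only describe the counts. Neutrophils carry much IL-1R2. The summed level of the 7 neutrophil genes in the table was 35 to 92 CPM over all samples, mostly from Mmp8. That sum was 70.5 to 73.4 CPM with AC in SjSS and 82.8 to 87.3 CPM in SjSS controls. Its part in the Il1r2 values was not tested.

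Il1rap, the accessory chain shared by receptors of the family, was the steadiest of the 8. Group means were between 8.55 and 8.92 CPM in 5 of the 6 groups. With AC in SjSS it held 12.3, 11.0 and 11.3 CPM, above every other sample. The log2 value of that response was 0.42 (SE 0.10, adjusted p = 0.00170) and of the strain difference with AC 0.40 (SE 0.10, adjusted p = 0.00324), both under the fold threshold. With libraries scaled by totals alone they were 0.01 and 0.10. Exons of Il1rap overlap those of Gm20319 on the opposite strand by 552 bp, and the exons of Il1a and Il1b overlap the opposite-strand genes Gm14023 and Il1bos by 222 and 25 bp.

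Levels of different genes were compared as CPM per kb of exon sequence. In B6 controls Il18bp was at 22.3 and Il1rn at 13.5, followed by Il1a at 3.28, Il18 at 2.86 and Il1b at 2.76, and then Il1rap at 0.785, Il1r1 at 0.217 and Il1r2 at 0.0754. Samples of Il1a, Il18 and Il1b overlapped there, so these 3 were not ordered beyond their spread. By this measure, which divides by the joined length of all annotated exons, the antagonists were above the ligands and the ligands above the receptors. In CPM, not divided by length, Il1rap at 8.916 was above Il1a at 6.475, Il1b at 5.264 and Il18 at 2.944 in B6 controls. In SjSS controls Il18bp was at 24.7 and Il1rn at 18.8, with Il18 at 1.89 and Il1a at 1.68 overlapping each other, and Il1b at 1.03 overlapping Il1rap at 0.753. With AC in B6 Il1b at 27.0 overlapped both Il1rn at 26.5 and Il18bp at 20.8, ahead of Il1a at 13.0. With CpG in B6 the order began with Il1b at 538.9 and Il1a at 75.3, ahead of Il1rn at 27.0 and Il18bp at 13.4. With CpG in SjSS it began with Il1b at 57.3 and Il1rn at 26.7, and Il1a at 14.8 and Il18bp at 14.7 overlapped. With AC in SjSS the first 3 were Il1b at 67.4, Il1rn at 65.9 and Il1a at 54.5. Samples of Il1b and Il1rn overlapped there, and those of Il1a were below both. The Il18 row covers part of the gene whose exon length was used, so its place in the order is uncertain.

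Counted over the 7 genes other than Il1r2, the AC response called 2 in B6 (Il1a and Il1b) and 4 in SjSS (those and Il1rn and Il18), all higher. Over all tested genes the AC response called 4.47% in B6 (2.43% higher) and 12.9% in SjSS (7.09% higher). The median log2 fold change of the 7 was 0.82 in B6 and 1.81 in SjSS, beside 0.00 and -0.02 over all tested genes. The CpG response called the same 3 genes in both strains (Il1a, Il1b and Il18, all higher), against 12.7% of all genes in B6 (5.86% higher) and 9.26% in SjSS (4.81% higher). Between strains 1 was called in controls (Il1b, lower in SjSS), where 2.01% of all genes were (0.716% lower). With AC 4 were called (Il1a, Il1b, Il1rn and Il18, all higher in SjSS), beside 8.93% of all genes (6.24% higher). With CpG 2 were called (Il1a and Il1b, both lower in SjSS), beside 2.61% (0.792% lower). The interaction of strain with AC called 3 (Il1a, Il1b and Il18, larger in SjSS), beside 7.53% (4.76% higher), and the interaction with CpG called 2 (Il1a and Il1b, smaller in SjSS), beside 0.614% (0.329% lower). Comparisons within a strain share its control samples and are not independent of each other.

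The strain differences with AC and with CpG were also compared with each other, in a test added after the values were seen, which uses no control sample. The difference of SjSS from B6 was larger with AC than with CpG by a log2 value of 4.42 for Il1a (SE 0.23, adjusted p = 3.70e-11) and 4.55 for Il1b (SE 0.26, adjusted p = 1.04e-10). It was larger by 2.12 for Il18 (SE 0.24, adjusted p = 1.21e-06) and 1.33 for Il1rn (SE 0.21, adjusted p = 6.15e-05). These 4 genes were the ones called, beside 8.73% of all genes (5.17% higher). The Il1rn value lay near the fold threshold, at 1.29 without B6 CpG replicate 3 or SjSS CpG replicate 2, 1.25 without B6 AC replicate 2 and 0.94 with libraries scaled by totals alone, and was then not called.

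**Figure D3:**
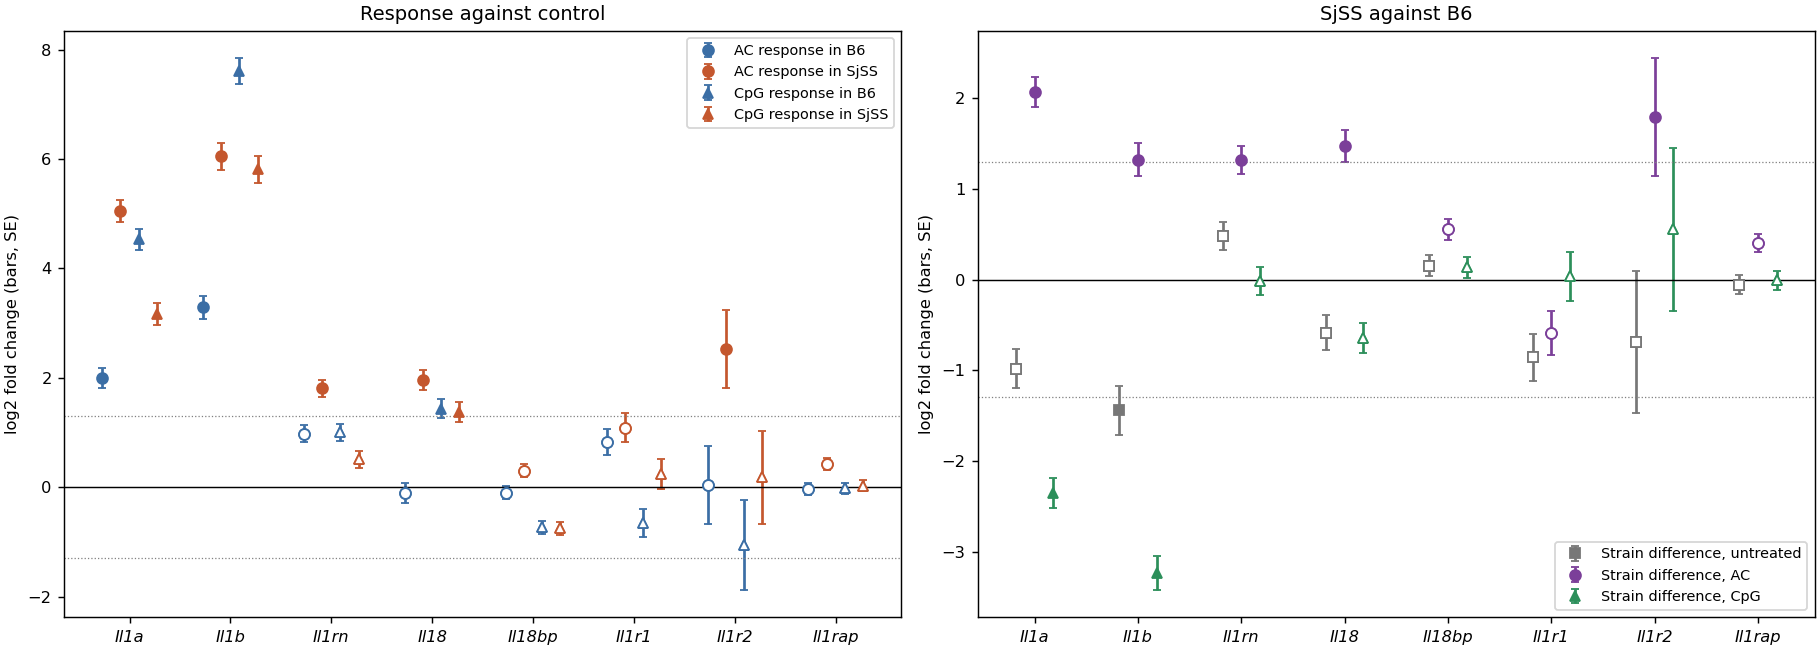
Log2 fold changes of the 8 genes (bars, SE; filled symbols, past both thresholds, Il1r2 included although it passed the filter only through the AC treated SjSS samples; dotted lines, the fold threshold of 1.3 in either direction), with responses against control at the left and SjSS against B6 at the right. At the right, Il1a and Il1b lie above 0 with AC, at 2.06 and 1.32, and below 0 with CpG, at -2.35 and -3.23.

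Genes around the family were taken from 5 lists. Of the other IL-1 family ligands 3 of 11 were in the table, and all 3 passed the filter. Il1f9, which encodes IL-36γ, was called higher with AC and with CpG in both strains, by a log2 fold change of 4.29 with CpG in B6 (SE 0.30, adjusted p = 4.74e-10). Il33, an alarmin of barrier tissue, had 59 counts over the AC treated SjSS samples and 0 in SjSS controls. Il1f6, which encodes IL-36α, had 0 counts in controls and 65 over the CpG treated B6 samples. Both passed the filter only through treated samples with such counts, so no call is drawn for them. Of 7 other receptors of the family, the table held 5, of which 4 had enough counts to be tested. Il18rap, the accessory chain of the IL-18 receptor, was at 0.377 ± 0.156 CPM (SD, n = 3) in SjSS controls and 1.22 ± 0.300 with AC, a log2 fold change of 1.67 (SE 0.53, adjusted p = 0.0111). With CpG in SjSS it fell, at -2.01 (SE 0.68, adjusted p = 0.0179). The ligand-binding chain Il18r1 did not pass the filter. Sigirr, an inhibitory receptor, fell with CpG in both strains, at log2 fold changes of -1.73 in B6 (SE 0.32, adjusted p = 0.000133) and -1.76 in SjSS (SE 0.31, adjusted p = 8.00e-05).

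The counts of the lists that follow stand beside the shares over all tested genes, which were 2.43% higher and 2.04% lower with AC in B6 and 7.09% and 5.83% in SjSS. With CpG these shares were 5.86% and 6.88% in B6 and 4.81% and 4.45% in SjSS. Of 18 genes for maturation and release, 15 were in the table and tested. With AC, 2 rose in B6 (Mefv and Nlrp3), while in SjSS 4 rose (those, Casp1 and Casp4) and 1 fell (Nlrp1b). With CpG, 3 rose in each strain (Casp4, Mefv and Nlrp3) and Nlrp1b fell in each, with Prtn3 also lower in B6. Casp4, which encodes the caspase of the noncanonical inflammasome, was at 8.61 ± 0.739 CPM in SjSS controls and 95.2 ± 5.19 with AC. Its AC response was 3.47 in SjSS (SE 0.09, adjusted p = 4.77e-16) and 1.28 in B6 (SE 0.08, adjusted p = 9.26e-10), the latter just under the fold threshold, and the interaction of 2.19 was called (SE 0.12, adjusted p = 1.20e-10). Prtn3, a neutrophil protease gene, fell with CpG in B6, at a log2 fold change of -3.67 (SE 0.95, adjusted p = 0.00269), from 36 counts over the group to 2.

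All 15 signaling genes were tested, with 2.43% of all genes higher with AC in B6, 7.09% with AC in SjSS, 5.86% with CpG in B6 and 4.81% with CpG in SjSS. AC called 1 higher in B6 (Peli1) and 3 in SjSS (Peli1, Irak3 and Myd88), and CpG called 3 higher in B6 (Irak2, Irak3 and Myd88) and 1 in SjSS (Irak3). Peli1, an E3 ubiquitin ligase of IL-1 receptor and TLR signaling, rose with AC by 1.40 in B6 (SE 0.07, adjusted p = 3.95e-11) and 3.05 in SjSS (SE 0.08, adjusted p = 2.07e-16). With CpG it was at 0.27 in B6 (SE 0.07, adjusted p = 0.00281) and 0.03 in SjSS (SE 0.07, adjusted p = 0.763). Irak3, an inhibitory kinase homolog, rose with CpG by 2.49 in B6 (SE 0.06, adjusted p = 6.61e-16) and 2.74 in SjSS (SE 0.07, adjusted p = 1.96e-16). Of 10 genes induced by both IL-1 receptors and TLRs, AC called 6 higher in B6 and 9 in SjSS, and CpG called 9 higher in each strain. Il6 went from 0.0674 ± 0.0748 CPM to 69.3 ± 12.0 with AC in SjSS and to 5.27 ± 1.39 with AC in B6 from 0.103 ± 0.0633. Csf3, the G-CSF gene, had 0 counts in B6 controls. With CpG in B6 it was 913-fold higher when 3 counts are allowed for the control group. The exact 95% lower limit of the ratio was 742.1. Between strains with AC, 7 of the 10 were called higher in SjSS, beside 6.24% of all tested genes. With CpG 2 were called lower (Csf3 and Ptgs2), beside 0.792%.

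**Figure D4:**
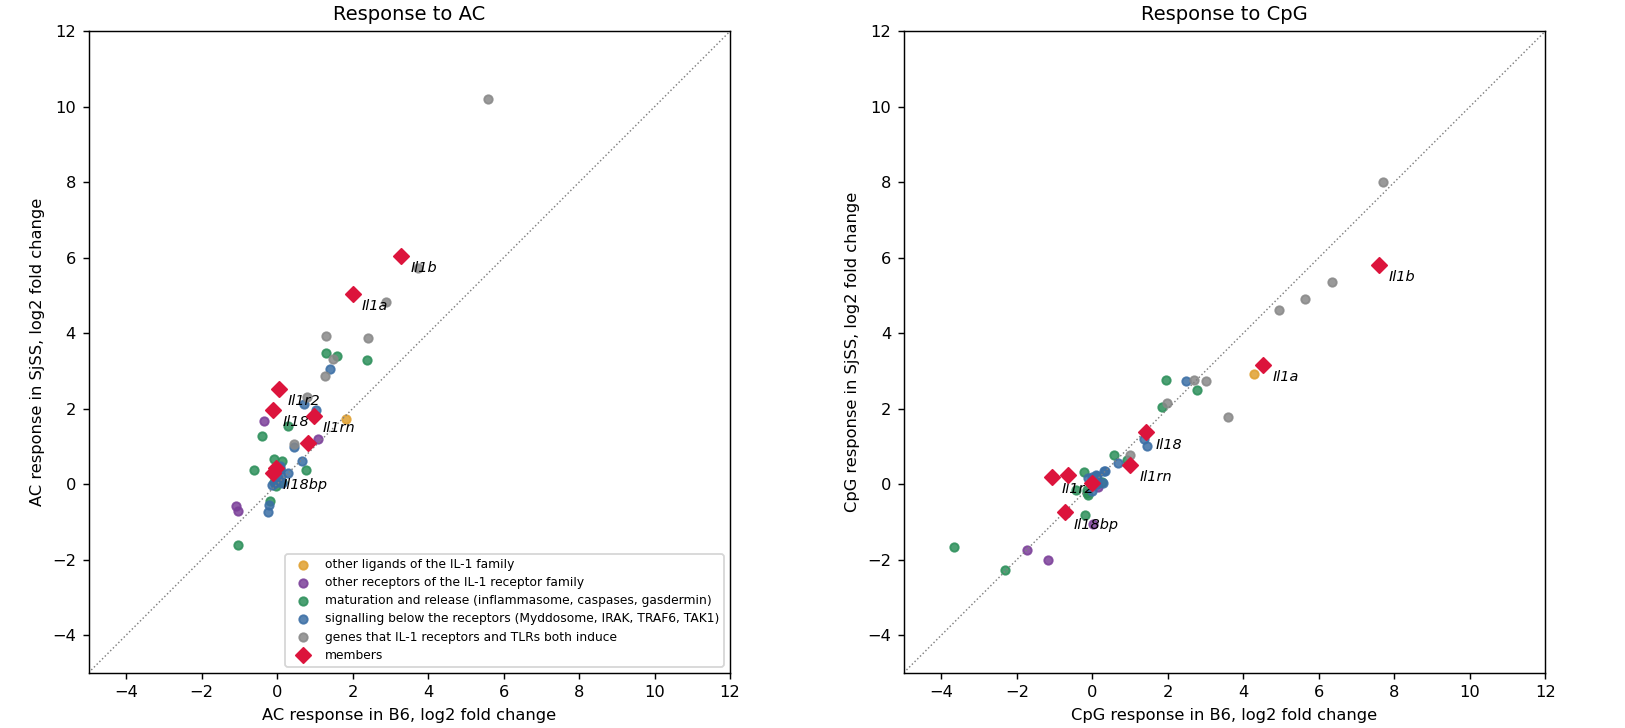
Log2 fold changes with AC (left) and CpG (right) in B6 (x axis) and SjSS (y axis) for the 8 genes (diamonds) and the tested genes of the 5 lists (circles), leaving out 3 list genes with a group at 0 counts; the dotted line marks equal responses. Il1a and Il1b lie above the line with AC (5.05 against 2.00 and 6.05 against 3.29) and below it with CpG (3.16 against 4.53 and 5.82 against 7.61).

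The genes whose pattern over the 18 samples was closest to each gene were found by Pearson's r of log2 CPM, as a description. The 18 points form 6 groups, so r mostly reflects the 6 group means. For Il1a the closest were Fam102b (0.985), Nlrp3 (0.984) and Lcp2 (0.984). Nlrp3 encodes the sensor of the inflammasome that matures IL-1β. For Il1b they were Pofut2 (0.987), Mina (0.985) and Mmp14 (0.980). For Il1rn they were Ccrl2 (0.960), Ifit2 (0.958) and Tgtp2 (0.958), the latter pair being interferon-induced genes. For Il18 they were Ist1 (0.983), Mbd2 (0.977) and Cers6 (0.975). No gene came as close to the receptor genes. The highest r was 0.879 for Il1r1 (Galnt6, then Mt1 and Atp6v1g1), 0.872 for Il1r2 (Spty2d1, then Atp6ap2 and Gm1848) and 0.861 for Il1rap (Smchd1, then Rps6 and Brwd3). Low counts limit r for Il1r1 and Il1r2, and the narrow range of values limits it for Il1rap.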

How the data were processed

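Samples were 18 BMDM cultures in 6 groups of 3, assigned from their labels. The authors aligned reads to mm10 with STAR, per the labels, and deposited estimated counts per gene from Partek's E/M method, not normalized. The notes also name DESeq2. Of the values, 41.1% were not whole (tolerance 1e-06). The estimated counts were rounded, filtered by filterByExpr, scaled by TMM and fitted with 1 mean per group by edgeR 4.0.16 (R 4.3.3) in a quasi-likelihood model. P values were adjusted by Benjamini-Hochberg over all 15789 tested genes. SE is the size of the log2 fold change divided by the square root of F. CPM used TMM-scaled totals, and log2 CPM a prior count of 2. A fold against a group with 0 counts used a floor of 3 counts over the group. Intervals and floors cover counting error only. Rows started where GENCODE M21 genes do in 88.5% of 19835 matched symbols. Motifs were searched in RefSeq windows, found for all 8 genes.

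The 8 genes, the lists and the tests were chosen with earlier results of these data known. Genes named were the 8, the 3 closest in pattern to each (not reported here for Il18bp), and at most 2 of each list with the largest called change in the AC response of SjSS or the CpG response of B6. Mefv, Casp1, Nlrp1b, Myd88, Irak2, Ptgs2 and Il1f9 were named after their values were seen. Alternatives were DESeq2 1.42.0, its size factors, other filters and fold thresholds, a block for replicate number, fits limited to the groups being compared, and each sample left out. Scaling by library totals alone and the comparison of strain differences between agents were added after seeing the data. Ratios used exact permutation tests (scipy 1.17.1). Replicate libraries differed beyond sampling noise. Scripts were tested on simulated data.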

Additional observations from a re-analysis of the deposited data

Results flagged for a closer look

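The AC response differed between strains by a test of the interaction for 3 of the genes, with log2 values, larger in SjSS, of 3.05 for Il1a, 2.76 for Il1b and 2.06 for Il18. The CpG response differed in the other direction for Il1a (-1.37) and Il1b (-1.79). The Il1a call was lost when some single samples were left out, at -1.16 without B6 control replicate 1. The strain difference with AC exceeded that with CpG by 4.42 for Il1a, 4.55 for Il1b, 1.33 for Il1rn and 2.12 for Il18, in the comparison added after the values were seen. The Il1rn value lay near the fold threshold. It was not called without some single samples or with libraries scaled by totals alone (0.94).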

How the results depend on the processing

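No log2 fold change of the 8 genes that was called changed sign under any alternative run. With a fold change of 1.3 in place of a log2 fold change of 1.3, members called were 4 in the AC response of B6, 6 and 5 in the CpG response of B6 and SjSS, 5 between untreated strains, 8 between strains with AC and 5 in the AC interaction. All genes called were then 3523 and 6697 for the AC response in B6 and SjSS, 6764 and 6082 for the CpG response, 1643, 5266 and 1832 between strains untreated, with AC and with CpG, 4634 and 744 for the AC and CpG interactions, and 4875 for the strain difference with AC minus that with CpG. Scaling by library totals alone left 1 of the 5 genes past the thresholds between strains with AC (Il1a), Il1r2 among the 5. All genes called in that comparison went from 1410 to 1515. That scaling moved the median of all genes by -0.413 in the AC response of SjSS and by -0.300 between strains with AC. Leaving out 1 sample at a time gave 0 to 1 members called between untreated strains, 3 to 5 between strains with AC, 2 to 3 in the CpG response of SjSS, 3 to 4 in the AC interaction, 1 to 2 in the CpG interaction and 3 to 4 in the strain difference with AC minus that with CpG. All genes called were then, in the same order, 237 to 329, 1299 to 1413, 1369 to 1558, 1103 to 1205, 75 to 126 and 1265 to 1469. The counts of members called include Il1r2, which passed the filter on low counts only through the AC treated SjSS samples. Its calls among them are therefore not taken as results, and it alone gave the count of 4 in the AC interaction.

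Replicate numbers were the same in all groups. Deviations from group means of same-numbered samples of a strain correlated at 0.0198 to 0.264 (9 of 18 pairs over 0.1). Those of different-numbered samples of a strain correlated at -0.252 to 0.0745 (0 of 36 pairs over 0.1). In all, 14 of 18 samples correlated best with their own number. The numbers were not taken to pair the samples, so the main fit may leave out a pairing. Neither the replicate block nor the block within strain changed a call of any member other than Il1r2. With the replicate block 715 genes in all were called in the AC response of B6. Fitted values of Il1r2 with the blocks are not given, because it passed the filter on low counts only through the AC treated SjSS samples. Low counts limit Il1r2 most.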
